A study of Mus musculus with 6 samples.

Results

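Tcea1 and Tcea3 encode paralogues of the transcription elongation factor TFIIS. They are 2 of the 6532 genes with usable counts in a ribosome profiling, RNA and CLIP data set of mouse E14 embryonic stem cells, an established line. The genes were taken by symbol. They had been selected on measured values, namely footprints of the 5' untranslated region (5' UTR), of the first 15 codons and of the coding sequence (CDS) in the same libraries described here, so those values are given as a description. The third mouse TFIIS gene, Tcea2, was not analysed here.

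All siRNA libraries came from wild-type E14 cells. In the siPKM group the cells received an siRNA pool against both PKM splice forms, and in the siCtrl group a non-targeting pool, each at 20 nM for 36 h. Every culture was passaged 16 h before harvest and treated with cycloheximide at 100 µg/ml for 2 min. For each group there was 1 RNA library, made from total RNA after removal of rRNA, and 1 library of the fragments that ribosomes protect from nuclease (RPF, here called footprints). The 2 FAST-iCLIP libraries came from E14 cells with FLAG-HA-tagged PKM2 and no siRNA, crosslinked with ultraviolet light at 0.35 J per cm2. CLIP counts are reverse transcription stops, which tend to fall next to a crosslinked base. With 1 library per siRNA group and kind, no difference between siPKM and siCtrl has a replicate check and no p-value is given. All intervals are 95% intervals that cover counting error only, and no spread between cultures. PCR copies of a molecule could be counted more than once, and the intervals would then be too narrow.

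RNA polymerase II can slide backwards on its template and stall. TFIIS binds the stalled enzyme and stimulates it to cut its own transcript, which frees it to go on. Tcea1 is the broadly expressed form, while Tcea3 is more restricted and has been linked to the differentiation potential of mouse embryonic stem cells. In ribosome profiling, footprints ahead of the start codon are usually read as ribosomes on upstream reading frames. Footprints on the first codons come from ribosomes that have just started, a position where cycloheximide is known to raise the count.

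The siPKM and siCtrl libraries held 12545485 and 15175242 CDS footprints, and 10349212 and 12111993 CDS reads of RNA. The CLIP replicates held 677534 and 670508 stops. The targeted message, Pkm (Pkm2 in the table), had 16371 CDS reads in siPKM RNA and 60849 in siCtrl RNA, a log2 ratio of -1.71 (-1.74 to -1.69). Of 8 stem cell markers, 7 were in the table, and their summed CDS reads made up 0.417% of siPKM RNA and 0.427% of siCtrl RNA. Of 11 markers of trophoblast, primitive endoderm, fibroblasts and neural cells, 5 (Krt8, Krt18, Vim, Nes and Pax6) were in the table, at 0.0426% of siPKM RNA and 0.0354% of siCtrl RNA. Their part in the results below was not tested. In bulk libraries, fewer cells of a type and less RNA per cell cannot be told apart.

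Tcea1 (uc007afi.2, NM_011541) differed between the groups ahead of its start codon, in counts that were among those that chose it. How reads shared with its annotated pseudogene, Tcea1-ps1, were counted is not given in the sources used here, so its counts are uncertain to that extent. Its 5' UTR held 198 footprints in siPKM, against 466 in siCtrl. Counts on the first 15 codons and the CDS after them were closer between the libraries, with 273 in siPKM and 310 in siCtrl on the first 15 codons, and 3334 in siPKM and 4240 in siCtrl on the remaining CDS. Per 100 CDS footprints, the 5' UTR of Tcea1 thus had 5.94 footprints in siPKM and 11.0 in siCtrl, which was 1.85-fold lower in siPKM. The log2 ratio was -0.89 (-1.14 to -0.64). As a share of all footprints on the transcript, the 5' UTR took 5.18% (4.50 to 5.93, exact Clopper-Pearson interval) in siPKM and 9.22% (8.43 to 10.0) in siCtrl.

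RNA reads of the same region give the background for this difference. The 5' UTR of Tcea1 took 4.16% (3.67 to 4.68) of its RNA reads in siPKM and 4.54% (4.09 to 5.01) in siCtrl, or 10.4 and 11.8 reads per 100 CDS reads. The log2 ratio in RNA was -0.19 (-0.44 to 0.06), an interval that includes 0. The footprint ratio minus the RNA ratio was -0.70 (-1.05 to -0.35). It contains the footprint counts that chose the gene, and its interval does not allow for that choice, so it is a description.

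Relative to its own CDS, Tcea3 (uc008vhv.2, NM_011542) differed elsewhere, on the first 15 codons. That stretch held 113 footprints in siPKM and 97 in siCtrl, while the remaining CDS held 1183 in siPKM and 2122 in siCtrl. Per 100 CDS footprints, the first 15 codons of Tcea3 had 9.55 in siPKM and 4.57 in siCtrl, 2.09-fold higher in siPKM, with a log2 ratio of 1.06 (0.64 to 1.48). In raw counts, the first 15 codons thus held slightly more footprints in siPKM, and the remaining CDS and the 5' UTR fewer. The siPKM library was the smaller one, with 12545485 CDS footprints against 15175242 in siCtrl. In the search for like genes below, region counts were scaled to library totals. On that scale the footprint log2 ratios of Tcea3 were 0.49 on the first 15 codons, -0.58 in the CDS and -0.77 in the 5' UTR. The ratio per 100 CDS footprints thus includes the lower CDS count.

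In RNA the first 15 codons of Tcea3 went the other way, with 28 reads in siPKM and 57 in siCtrl. This corresponds to 2.34 and 3.20 per 100 CDS reads and a log2 ratio of -0.44 (-1.17 to 0.23). The footprint ratio minus the RNA ratio was 1.502 (0.73 to 2.27), again with no allowance for the choice of the gene. The RNA counts are small, which accounts for the width of these intervals.

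**Figure D1:**
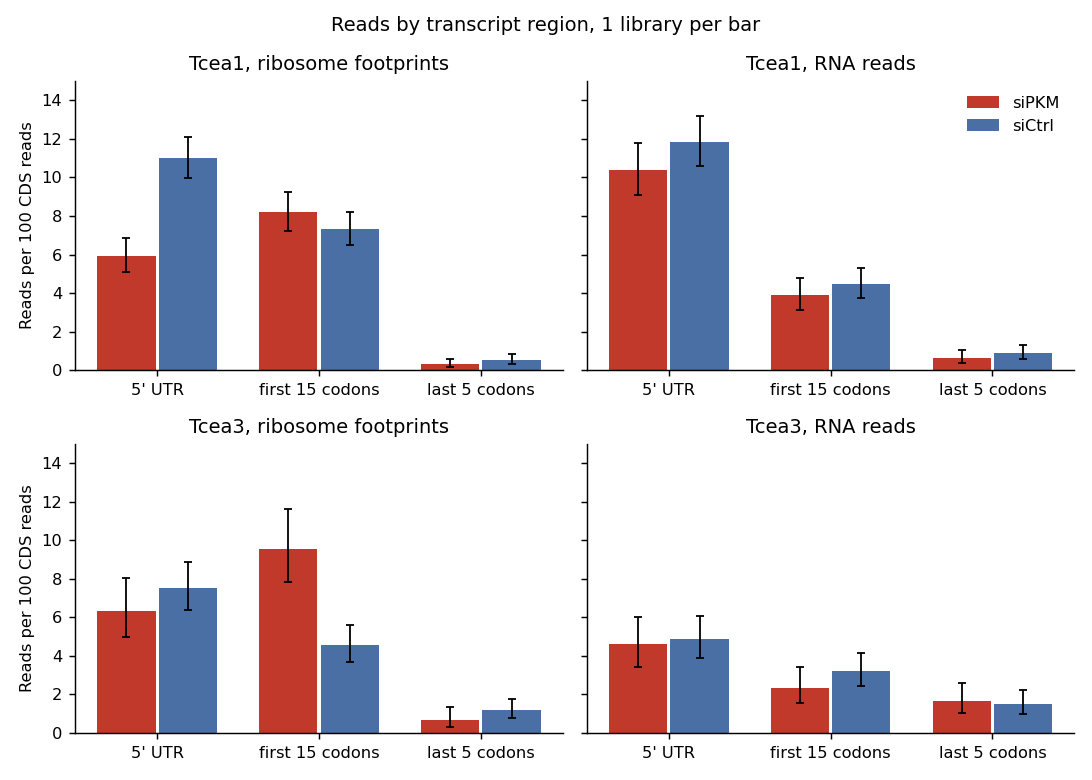
Reads per 100 CDS reads (vertical axis) in the 5' UTR, first 15 codons and last 5 codons of Tcea1 (top) and Tcea3 (bottom), in footprints (left) and RNA (right). Each bar is 1 library, siPKM left of siCtrl, and error bars are 95% counting intervals. The Tcea1 5' UTR stands at 5.94 in siPKM and 11.0 in siCtrl footprints, and the first 15 codons of Tcea3 at 9.55 and 4.57.

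Relative to the CDS, the gene that differed in one region differed less in the other. On the first 15 codons, Tcea1 had 8.19 footprints per 100 CDS footprints in siPKM and 7.31 in siCtrl, a log2 ratio of 0.16 (-0.09 to 0.41). The interval lies below that of Tcea3 for the same region. Both rest on footprint counts that chose the genes and make no allowance for that choice, so this is a description. In the 5' UTR, Tcea3 had 75 footprints in siPKM and 160 in siCtrl, or 6.34 and 7.54 per 100 CDS footprints. This gave a log2 ratio of -0.25 (-0.68 to 0.17), which includes 0 and overlaps the interval of Tcea1. A 5' UTR difference of Tcea3 relative to its CDS was therefore not detectable at this depth. Its raw 5' UTR count was lower in siPKM alongside its lower CDS count.

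Of the 5068 genes with at least 10 footprints in the 5' UTR, 8.94% were at least 1.5-fold lower in siPKM relative to their CDS and 6.85% at least 1.5-fold higher, and 1 of the 2 genes here, Tcea1, was among those lower. Of the 6017 genes with at least 10 footprints on the first 15 codons, 8.24% had ratios 1.5-fold or more above siCtrl and 9.94% as far below, and 1 of the 2, Tcea3, was among those above. Because these ratios chose the genes, nothing further is read from the counts. Ratios of this size were less common in well covered regions: with at least 50 footprints in the region, 4.91% of genes were at least 1.5-fold lower in the 5' UTR and 4.05% at least 1.5-fold higher on the first 15 codons. As a description of the values that chose them, the 5' UTR ratio of Tcea1 was number 178 from the lowest of the 5068 genes and number 36 of the 3766 with at least 50 footprints there. The first 15 codon ratio of Tcea3 was number 114 from the highest of the 6017 genes and number 10 of the 4201 with at least 50.

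**Figure D2:**
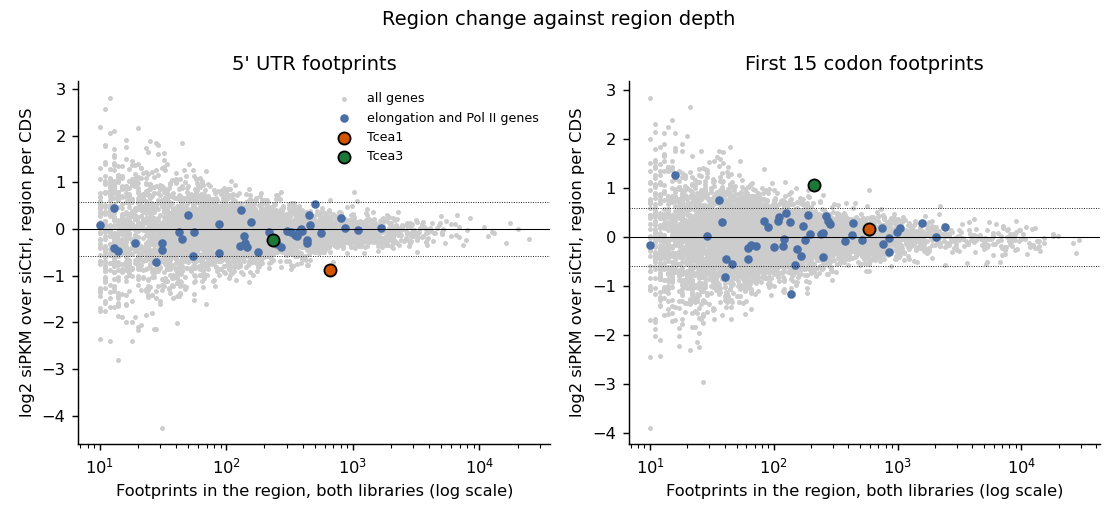
Log2 ratio of siPKM over siCtrl for region footprints per CDS footprint (vertical axis) against the footprints in that region in both libraries (horizontal, log scale), for the 5' UTR (left) and the first 15 codons (right). Grey points are genes with at least 10 footprints, blue points the other elongation and RNA polymerase II genes, and dotted lines mark 1.5-fold. Tcea1 lies at -0.89 and Tcea3 at -0.25 on the left, and Tcea1 at 0.16 and Tcea3 at 1.06 on the right, and the spread of the grey points narrows toward higher counts.

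The regions on both sides of the start codon were also set against each other. This ratio was computed after the values above were seen and rests on the counts that chose the genes, so its direction is no separate result. Relative to the CDS, the interval excluded 0 for the 5' UTR alone in Tcea1 and for the first 15 codons alone in Tcea3. Of the Tcea1 footprints in the 5' UTR and the first 15 codons together, 42.0% (37.5 to 46.6) lay in the 5' UTR in siPKM and 60.1% (56.5 to 63.5) in siCtrl. Of those of Tcea3, 39.9% (32.8 to 47.3) did in siPKM and 62.3% (56.0 to 68.2) in siCtrl. In both genes, most of these footprints lay in the 5' UTR in siCtrl and on the first codons in siPKM. The log2 ratio of 5' UTR over first 15 codon footprints was -1.05 (-1.40 to -0.71) for Tcea1 and -1.31 (-1.90 to -0.73) for Tcea3.

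In RNA the same shares hardly differed for Tcea1, at 72.7% (67.8 to 77.3) in siPKM and 72.5% (68.4 to 76.4) in siCtrl. For Tcea3 the shares in RNA were 66.3% (55.1 to 76.3) in siPKM and 60.4% (51.9 to 68.5) in siCtrl, with overlapping intervals. Of the 4757 genes with at least 10 footprints in each region, 16.0% were at least 1.5-fold lower in siPKM in this ratio and 12.9% higher, and both genes were among those lower.

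**Figure D3:**
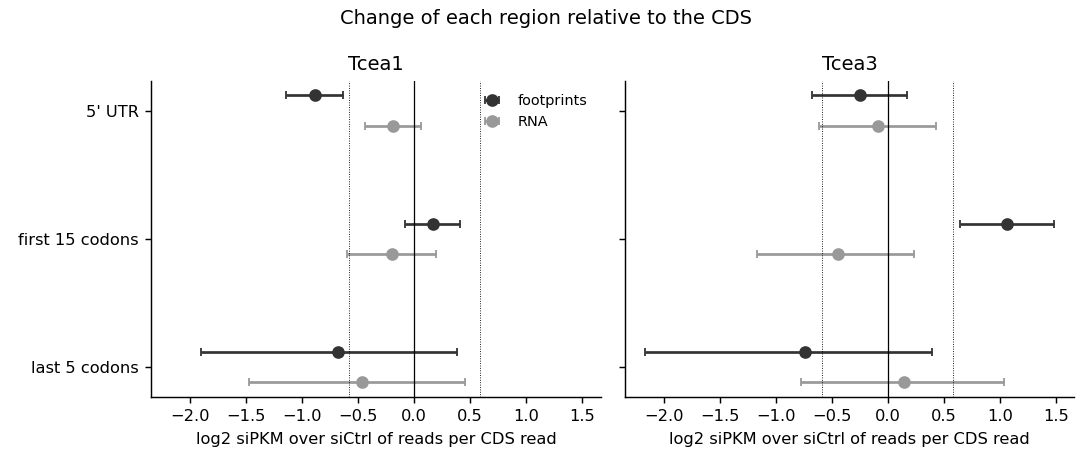
Log2 ratio of siPKM over siCtrl of reads per CDS read (horizontal axis) in 3 regions of Tcea1 (left) and Tcea3 (right). Dark points are footprints, grey points RNA, bars 95% counting intervals, and dotted lines 1.5-fold. The intervals of the footprint ratios exclude 0 for the 5' UTR of Tcea1 and for the first 15 codons of Tcea3, and the other intervals drawn include 0.

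The ends of the coding sequences held few footprints. On the last 5 codons Tcea1 had 11 footprints in siPKM and 23 in siCtrl, a log2 ratio per CDS footprint of -0.68 (-1.90 to 0.38). Tcea3 had 8 in siPKM and 25 in siCtrl, a log2 ratio of -0.74 (-2.16 to 0.40). Both values were at least 1.5-fold lower in siPKM, as were those of 16.8% of the 3594 genes with at least 10 footprints there. A further 18.2% of these genes were at least 1.5-fold higher. The intervals of Tcea1 and Tcea3 both include 0. In the 3' UTR, Tcea1 had 6 footprints in siPKM and 16 in siCtrl, a log2 ratio of -0.997 (-2.71 to 0.36), and 28.7% of the 1270 genes with at least 10 footprints in that region were at least 1.5-fold lower. Tcea3 had 1 footprint there in siPKM and 3 in siCtrl.

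The 2 messages differ in build. The 3' UTR took 54.0% of Tcea1 RNA reads in siPKM and 55.0% in siCtrl, but 6.13% of Tcea3 RNA reads in siPKM and 5.61% in siCtrl. Neither RNA ratio of the 3' UTR per CDS read was distinguishable from 0, at -0.09 (-0.19 to 0.01) for Tcea1 and 0.13 (-0.31 to 0.56) for Tcea3. Of the RNA ratios at the 5' end, 0 of the 4 in these genes reached 1.5-fold lower, against 13.2% of the 5438 genes with at least 10 RNA reads in the 5' UTR and 16.2% of the 5775 with as many on the first 15 codons.

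The coding sequences were compared as log2 ratios centred on the median gene. Tcea1 messages had 2467 CDS reads in siPKM RNA and 3080 in siCtrl RNA, or 238 and 254 CPM (reads scaled to the library's CDS total). The centred log2 ratios of Tcea1 were -0.14 (-0.22 to -0.06) in RNA and -0.09 (-0.16 to -0.03) in footprints, whose levels were 266 CPM in siPKM and 279 CPM in siCtrl. Ordered from the lowest of the 6532 ratios, Tcea1 was number 1799 in RNA and number 2282 in footprints.

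Tcea3 was lower in siPKM in both kinds of library. Its CDS had 1198 reads in siPKM RNA and 1782 in siCtrl RNA, or 116 and 147 CPM. In footprints the levels of Tcea3 were 94.3 CPM in siPKM and 140 CPM in siCtrl. The log2 ratios were -0.39 (-0.50 to -0.29) in RNA and -0.59 (-0.69 to -0.49) in footprints, and the footprint level was thus 1.505-fold lower. Ordered from the lowest of the 6532 ratios, Tcea3 was number 311 in RNA and number 97 in footprints.

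At least 1.5-fold lower in siPKM RNA were 1.24% of the 6532 genes and 0 of these 2. In footprints 1.53% were at least 1.5-fold lower, and Tcea3 was 1 of them. The footprint ratio of Tcea3 sits on that limit, since it was -0.57 without centring, -0.53 with the first 15 and last 5 codons counted in the CDS, -0.54 with reads of the whole transcript and -0.58 when centred on better covered genes, all inside 1.5-fold.

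**Figure D4:**
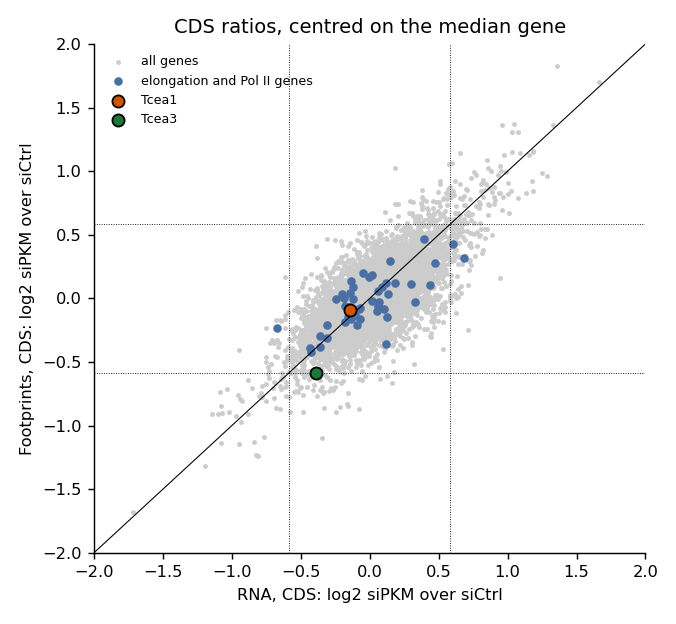
Centred log2 ratios of siPKM over siCtrl of CDS reads in RNA (horizontal) and footprints (vertical). Grey points are all 6532 genes, blue points the other elongation and RNA polymerase II genes, dotted lines 1.5-fold and the solid line equal ratios. Tcea1 lies near the centre at -0.14 and -0.09, and Tcea3 at -0.39 and -0.59 lies below the line.

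Translation efficiency (TE, CDS footprints over CDS RNA reads, each as a share of its library) was higher for Tcea1 than for Tcea3 in each group. On the log2 scale the TE level of Tcea1 was 0.16 in siPKM and 0.14 in siCtrl, and that of Tcea3 was -0.30 in siPKM and -0.07 in siCtrl. The median gene stood at -0.18 in each. Tcea3 was thus below the median gene in siPKM and above it in siCtrl. Centred on the median gene, the TE difference was 0.04 (-0.06 to 0.14) for Tcea1, not detectable at this depth, and -0.20 (-0.35 to -0.05) for Tcea3. In TE, 0.827% of the 6532 genes were at least 1.5-fold lower and 0.184% higher, and neither gene was among them. In the authors' deposited table the uncentred log2 TE difference was 0.02 for Tcea1 and -0.22 for Tcea3.

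The TE of Tcea3 leaves out its first 15 codons, where its footprints were not lower. With the first 15 and last 5 codons counted in, the centred TE difference of Tcea3 was smaller, at -0.13 against -0.20. It lies inside the interval above, but no interval was computed for this value itself.

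Other genes of transcription elongation and of RNA polymerase II were read for comparison, from lists of the elongin, DSIF, NELF, PAF1, P-TEFb, FACT and TFIIF groups and the polymerase subunits. Of these, 50 genes were in the table. In RNA 2 of the 50 were at least 1.5-fold higher in siPKM, against 2.88% of all genes, and 1 was lower, against 1.24%. The higher ones were Aff1 at 0.68 and Ell2 at 0.60, both of the super elongation complex that releases paused polymerase. The lower one was Polr2i, a small polymerase subunit, at -0.67. In footprints 0 of the 50 passed 1.5-fold in either direction, against 2.66% of all genes higher and 1.53% lower. In TE 0 did, against 0.184% of all genes higher and 0.827% lower. Medians over the 50 were -0.07 in RNA, -0.04 in footprints and -0.00 in TE, against 0 for all genes by the centring. The lowest footprint ratio among them, that of Polr2l at -0.42, was above that of Tcea3.

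RNA polymerase II subunits, the enzyme on which TFIIS acts, had 11 of 12 RNA ratios below 0, with a median of -0.16. By the centring, the median of all genes is 0. The exception was Polr2a, the largest subunit, at 0.47. Polr2g, at -0.005, was barely below 0, and Polr2i alone of the 12 passed 1.5-fold. A link between these ratios and the TFIIS genes was not tested. In footprints 8 of the 12 were below 0, with a median of -0.16, and in TE 3 of the 12, with a median of 0.07. The PAF1 complex, which travels with the polymerase, had medians of -0.07 in RNA and -0.11 in footprints over 6 genes. Elongin and its ubiquitin ligase partners, whose elongin A subunit (Tceb3) also promotes elongation, stood at -0.14 in RNA and -0.00 in footprints over 5 genes.

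At the 5' ends, 42 of the 50 had enough footprints in the 5' UTR. Of these, 1 was at least 1.5-fold lower relative to its CDS and 0 higher, against 8.94% and 6.85% of all genes. The lower one was Rbx1, the RING subunit of cullin ligases, at -0.70 from 10 footprints in siPKM and 18 in siCtrl. The median of -0.08 was near that of all 5068 genes, -0.05. On the first 15 codons, 2 of 49 were at least 1.5-fold higher and 2 lower, against 8.24% and 9.94% of all genes. Ell stood at 1.26 from 11 footprints in siPKM and 5 in siCtrl, and Aff4 at 0.75 from 21 in siPKM and 15 in siCtrl. Polr2a stood at -1.16 from 43 in siPKM and 95 in siCtrl, and Cobra1 (Nelfb), of the complex that holds paused polymerase, at -0.81 from 13 in siPKM and 27 in siCtrl. In the ratio of 5' UTR over first 15 codon footprints, 9 of 42 were at least 1.5-fold lower and 4 higher, against 16.0% and 12.9% of all genes. The lowest of them was Larp7 at -0.73, which helps keep P-TEFb inactive in the 7SK particle.

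The genes most like each TFIIS gene were sought over 4 centred log2 ratios (RNA CDS, footprint CDS, footprint 5' UTR and footprint first 15 codons). The search covered 3705 genes with at least 10 reads in each of these counts in each library. Here region counts were scaled to the library's total for that region, not to the CDS of the gene as above. Nearest to Tcea1 by Euclidean distance were Vps29, a retromer subunit, at 0.139, Tmco1, an ER membrane protein, at 0.192, and Lsm1, a factor of mRNA decay, at 0.195. Their 5' UTR footprint ratios lay between -0.81 and -0.77, against -0.91 for Tcea1 on this scale, and their CDS ratios between -0.26 and 0.01. Nearest to Tcea3 were Kctd3 at 0.276, the helicase Dhx16 at 0.379 and the adducin gene Add1 at 0.419. On this scale, Tcea3 combined a 5' UTR ratio of -0.77 with a first 15 codon ratio of 0.49. Its CDS footprint ratio was -0.58, so the 5' UTR value includes the lower footprint count of the whole message. Kctd3 had -0.54 and 0.37, Dhx16 -0.41 and 0.47, and Add1 -0.74 and 0.13.

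Both messages had few PKM2 CLIP stops. Tcea1 had 13 stops in replicate 1 and 29 in replicate 2, which are 19.2 CPM (10.2 to 32.8) and 43.3 CPM (29.0 to 62.1), or 31.2 ± 17.0 CPM (SD, n = 2). Tcea3 had 36 and 24 stops, 53.1 CPM (37.2 to 73.6) and 35.8 CPM (22.9 to 53.3), or 44.5 ± 12.3 CPM (SD, n = 2). The counting intervals of the replicates overlapped for each gene, but only narrowly for Tcea1. On the log2 scale, the replicates differed by 1.14 for Tcea1 and by 0.56 for Tcea3. Among 1180 genes with 30 to 60 stops, the median difference was 0.39 and the 95th percentile 1.19. The replicates of Tcea1 thus differed more than those of most such genes. Nothing in the labels says that the replicates came from separate cultures, so their spread may be technical.

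Relative to the RNA reads of the whole transcript in siCtrl, Tcea1 had a log2 CLIP over RNA of -3.71 (SD 0.81, n = 2), and 2.24% of the 6532 genes were lower. Tcea3 stood at -1.26 (SD 0.40, n = 2), with 14.3% of genes lower. Each value is the log2 of the mean CPM of the 2 replicates over RNA, and each SD is that of their separate log2 values. The median gene stood at 0.08, and the median of the 50 other elongation and polymerase genes at -0.27. Of those 50, 1 was lower than Tcea1, namely Polr2k at -4.03, and 14 were lower than Tcea3. The Pkm message itself stood at -3.56 (SD 0.05, n = 2). A CLIP library without tagged PKM2 was not used here, so the background of stops is unknown.

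**Figure D5:**
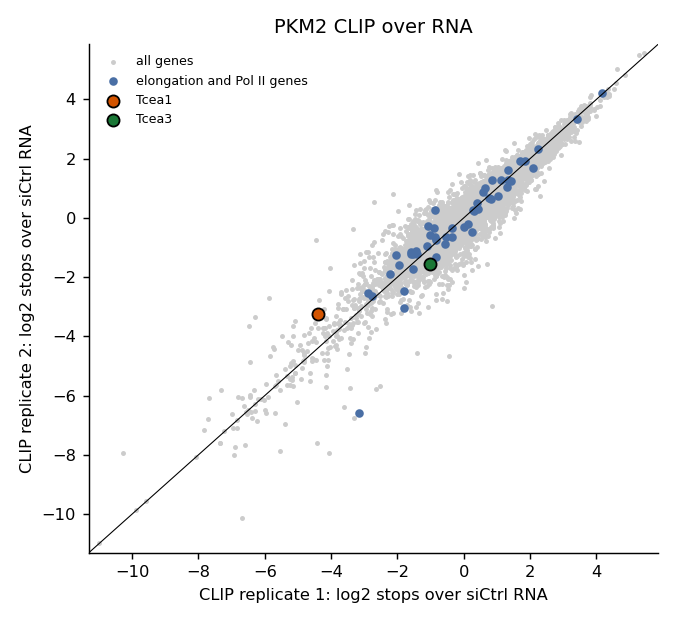
Log2 of reverse transcription stops over siCtrl RNA reads, each as a share of its library, in CLIP replicate 1 (horizontal) and replicate 2 (vertical). Grey points are all 6532 genes, blue points the other elongation and RNA polymerase II genes, and the line marks equal values. Tcea1 lies at -4.39 and -3.25 and Tcea3 at -1.003 and -1.56, both below the median gene.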

How the data were processed

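The deposited table holds raw counts of reads per transcript region and raw counts of reverse transcription stops, and log2 TE computed by the authors, per the file headers. Reads were processed with cutadapt and Bowtie2 on mm9, per the submitters' processing notes. Versions, strand handling and the treatment of multiply matching reads are not given in the sources used here. Tcea1 has an annotated pseudogene (Tcea1-ps1), so its counts could hold or lack shared reads. No coordinates are given, since the gene table at hand is of GRCm38.p6.

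Of 6535 rows, 3 repeats of a symbol were dropped (the row with most CDS RNA reads was kept). In all 4 siRNA libraries every row exceeded 150 CDS reads, so genes below that were not analysed here. A further 12 columns of the authors' normalized values were not used. CDS here excludes the first 15 and last 5 codons. CDS log2 ratios of siPKM over siCtrl used 0.5 added reads, scaling to the library's CDS sum and centring on the median gene. Region ratios were region over CDS reads of the same gene and library, with 0.5 added and no centring, and were read against genes with at least 10 region reads in both libraries together. Intervals at 95% were exact binomial (Clopper-Pearson) for CDS ratios, shares and CLIP, conditional exact for region ratios, and from the log of the counts (Woolf) for TE and for footprint minus RNA ratios. A size of 1.5-fold served for counting genes, and no test was possible with 1 library per group. The footprint CDS ratio and the 5' UTR per CDS footprint ratio, with their intervals, were tested on simulated counts that held counting error only. The other calculations were not tested in this way. The genes, gene lists and comparisons were chosen with earlier results of these data known. The genes named were Tcea1, Tcea3, Pkm, genes of the lists, and the 3 nearest genes to each. Python 3.11.15, numpy 2.4.6, pandas 2.3.3, scipy 1.17.1 and matplotlib 3.10.9 were used.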

Additional observations from a re-analysis of the deposited data

How the results depend on the processing

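The CDS, TE and region ratios of Tcea1 and Tcea3 kept their sign and stayed inside their counting intervals under every alternative run for them (another pseudocount, size factors, no centring, a median taken over better covered genes, other denominators, and, chosen after seeing the data, size factors without centring and whole transcript reads). The footprint CDS ratio of Tcea3, -0.59, ranged from -0.60 to -0.53 and so crossed 1.5-fold. CLIP over RNA was -3.13 for Tcea1 and -1.63 for Tcea3 over control CDS footprints, and leaving out 1 replicate gave -4.39 to -3.25 and -1.56 to -1.003.

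The background depends on depth. With at least 50 region footprints in place of 10, 4.91% of genes were at least 1.5-fold lower and 3.05% higher in the 5' UTR, 5.90% and 4.05% on the first 15 codons, 6.10% and 7.40% on the last 5 codons, 12.8% and 4.96% in the 3' UTR, and 9.95% and 6.31% in 5' UTR over first 15 codon footprints. With whole transcript reads, 29 genes were at least 1.5-fold lower in TE and 6 higher, against 54 and 12. No paired analysis was possible because there was a single RNA and a single footprint library per siRNA.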
